A study of Homo sapiens with 9 samples.

Results

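The genes described here are 10 long noncoding RNA genes that host small nucleolar RNAs (snoRNAs) in their introns: GAS5, SNHG1, SNHG5, SNHG6, SNHG7, SNHG8, SNHG12, SNHG15, SNHG16 and SNHG29. They were taken by symbol from the deposited TPM values of each library, and each symbol named 1 of the 62709 genes in the count table. All 10 passed the expression filter of edgeR, so every one was tested. The RNA came from hTERT-MSC, an established adipose-derived human mesenchymal stem cell line kept dividing by telomerase. Per the labels' protocols, cells starved of serum overnight were seeded without serum on uncoated membranes with pores of 3 µm and stood there for 2 h. They then met 50 ng/mL PDGF-BB, a platelet-derived growth factor that attracts mesenchymal cells, from the well below for 1 h. Pseudopodia, the protrusions that had passed through the pores, were scraped off the underside, and the cell body fraction was what lay above. The whole-cell libraries have PDGF-BB in their labels as well, but how those cells were taken up is not stated. Each group had 3 libraries, none was untreated, and all came from the same line. The labels do not state separate cultures, so the p-values measure the spread between these libraries, which may be technical.

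SnoRNAs guide the chemical modification of ribosomal RNA: box C/D snoRNAs direct 2′-O-methylation and box H/ACA snoRNAs direct pseudouridylation. They are mostly cut out of the introns of a host RNA after splicing, and the spliced exons leave as a separate product. Several noncoding hosts, GAS5 among them, are known to begin with a pyrimidine tract like that of ribosomal protein mRNAs, to be bound by ribosomes, and to be removed by nonsense-mediated decay, which destroys RNAs with an early stop codon.

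In GENCODE 29 on GRCh38, 26 snoRNA gene entries lay inside the members on the same strand, 15 of them named as box C/D and 9 as box H/ACA. SNHG1 held 7, SNHG12 held 5, SNHG7 held 4, SNHG16 and SNHG29 held 3 each, and SNHG5, SNHG6, SNHG8 and SNHG15 held 1 each. SNORA16A in SNHG12 and SNORA17B in SNHG7 are each listed more than once at overlapping positions. An entry without a snoRNA name in SNHG7 lies over SNORA17A. The members thus hold fewer separate snoRNAs than entries. The annotation lists 0 entries inside GAS5, although its introns are known for box C/D snoRNAs. Of the 26 entries, 24 shared bases with an annotated exon of their host. The count table held all 26, and only the 2 that touch no host exon had any count. These were SNORD99 in SNHG12, at chr1:28578749-28578822 on the minus strand, and SNORD1B in SNHG16, at chr17:76561109-76561192 on the plus strand. Their GENCODE sequences are shown because they are the only hosted snoRNAs with counts of their own, with capitals on an exact TGATGA (box C) and on the last CTGA (box D) where present.
SNORD99: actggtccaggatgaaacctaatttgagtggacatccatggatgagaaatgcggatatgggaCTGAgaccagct
SNORD1B: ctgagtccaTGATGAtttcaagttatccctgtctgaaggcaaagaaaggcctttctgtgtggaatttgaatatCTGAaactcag
SNORD99 had 1, 3 and 0 counts in the pseudopodia libraries, 18, 10 and 6 in cell body and 7, 5 and 6 in whole cell. SNORD1B had 2 counts in all libraries together.

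RefSeq promoters (GRCh38.p14) were examined for 8 of the 10 members. SNHG15 had no window there. SNHG6 was left out because promoters on its chromosome were not examined for single genes, although the shares over all genes include them. The windows below run from 20 bases before the annotated start to 50 from it on, and capitals mark the longest run of C and T. GAS5 and SNHG29 are shown because both were higher in pseudopodia than in cell body, SNHG1 and SNHG12 because both were lower, and SNHG16 because it was higher in both fractions than in whole cells. The windows lie at chr1:173868996-173869065 (GAS5, minus strand), chr17:16438967-16439036 (SNHG29, plus), chr17:76557744-76557813 (SNHG16, plus), chr1:28581824-28581893 (SNHG12, minus) and chr11:62855836-62855905 (SNHG1, minus).
GAS5: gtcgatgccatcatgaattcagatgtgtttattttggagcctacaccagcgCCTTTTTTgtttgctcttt
SNHG29: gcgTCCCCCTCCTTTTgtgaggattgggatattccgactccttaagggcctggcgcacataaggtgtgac
SNHG16: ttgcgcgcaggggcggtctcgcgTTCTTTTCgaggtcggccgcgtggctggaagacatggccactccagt
SNHG12: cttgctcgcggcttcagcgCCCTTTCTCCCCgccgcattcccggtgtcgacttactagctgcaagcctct
SNHG1: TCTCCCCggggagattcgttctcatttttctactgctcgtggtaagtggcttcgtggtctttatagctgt
CTTTT or CTTTC on the gene's strand stood in this window for 6 of 8 members (GAS5, SNHG5, SNHG8, SNHG12, SNHG16 and SNHG29), against 15% of the promoters of all 27305 genes. On the other strand it stood there for 1 of 8 members, against 13.6%. The annotations differ on where GAS5 starts: its RefSeq window lies wholly upstream of the GENCODE 29 gene, and its run begins 32 bases after the RefSeq start. The windows of SNHG12, SNHG29, SNHG1 and SNHG8 lie wholly inside their GENCODE genes, so the annotations differ on where these begin as well. Both the letters and the window were chosen after the sequences had been read: an earlier window that ended 30 bases after the start held the letters in 5 of 8 members, without GAS5, against 11% of all promoters. Among other noncoding snoRNA hosts 7 of 20 held them in either window. CTTTT and CTTTC share their first 4 letters and cannot start at the same base. TATA, which reads the same on both strands, stood 50 to 11 bases before the start in 4 of 8 members, 2 of 20 other hosts and 8.08% of all promoters. The window of SNHG12 holds these exact letters and that of SNHG1 does not, which does not show whether either RNA begins with a pyrimidine tract. Whether the letters bear on the fold changes was not tested.

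Library totals were 55469030 to 83894938 counts. Replicates of the whole-cell group were closest, with a biological coefficient of variation of 5.08% over all genes in edgeR, against 17.6% among cell body and 32.0% among pseudopodia libraries. Deviations from the pseudopodia mean followed the GC content of genes downward in replicate 2 and upward in replicate 3 (Pearson r across genes -0.56 and 0.57). All 8 mesenchymal markers examined were present, from LUM at 97.3 to COL1A1 at 17405 CPM (counts scaled to library size) on average in pseudopodia, where 7 of the 8 were lower than in cell body. Of the blood, endothelial and epithelial markers, PTPRC, CD3E, EPCAM and CDH1 averaged under 1 CPM in every group, while CD34, TEK and KRT18 were at 69.2, 46.2 and 149 CPM in pseudopodia. CD14, PECAM1, CDH5, VWF and KRT5 averaged between 1.32 and 14.8 CPM over the groups. A list of 10 nuclear noncoding RNAs, MEG3 among them, took 0.107% of whole-cell counts, 0.0487% of cell body counts and 0.0322% of pseudopodia counts. Pseudopodia and cell body are parts of cells of the same line, so these values do not count cells of a type. Whether cells within the line differed cannot be told from these bulk libraries.

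Levels between members can be compared only per length, on the deposited TPM scale, which divides by a gene length and library size. The lengths used were not stated, and the order of members depends on them. In whole cells SNHG8 stood above SNHG6 in CPM (28.3 against 19.6) but below it in TPM. Their longest GENCODE 29 transcripts have 672 and 648 bases and their exons cover 923 and 1247 bases, which do not give that change of order. The ranks below are those of the deposited TPM. In whole cells SNHG29 stood first at 109 ± 3.80 TPM (SD, n = 3), then GAS5 at 64.0 ± 2.5 and SNHG6 at 36.2 ± 0.888. SNHG7 (22.0 ± 1.28), SNHG1 (20.6 ± 1.61), SNHG16 (20.2 ± 1.93) and SNHG8 (20 ± 1.26) followed, and their gaps were smaller than their summed SDs. SNHG12 at 6.08 ± 0.197, SNHG15 at 4.41 ± 0.170 and SNHG5 at 0.858 ± 0.103 TPM were the lowest. SNHG5 had 94 to 224 counts a library, the fewest of the members. Whether reads that also match other genes were left out of this count was not stated, so its level and its rank are uncertain.

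In pseudopodia the first 3 places were the same, with SNHG29 at 176 ± 16.7, GAS5 at 98.6 ± 6.37 and SNHG6 at 59.9 ± 23.1 TPM. SNHG16 (31.0 ± 4.05), SNHG7 (23.2 ± 2.76) and SNHG8 (19.3 ± 1.75) came next, and the last 2 differed by less than their summed SDs. SNHG15 followed at 10.9 ± 2.67, ahead of SNHG1 at 7.33 ± 0.391, SNHG12 at 2.75 ± 0.324 and SNHG5 at 0.607 ± 0.164 TPM. In cell body SNHG29 (130 ± 10.9), GAS5 (86.3 ± 13.9), SNHG6 (51.6 ± 8.98) and SNHG16 (33.0 ± 2.23) led. SNHG7 (24.7 ± 4.57), SNHG1 (23.3 ± 2.95), SNHG15 (22.4 ± 5.38) and SNHG8 (18.8 ± 4.25) differed there by less than their summed SDs, above SNHG12 at 8.01 ± 1.08 and SNHG5 at 0.569 ± 0.0468 TPM. SNHG1 thus stood among the middle members in cell body and whole cell and near the bottom in pseudopodia.

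The first comparison set the pseudopodia libraries against the cell body libraries, without pairing them. SNHG29 and GAS5 were higher in pseudopodia, 1.66-fold and 1.4-fold, and SNHG1, SNHG12 and SNHG15 were lower, 2.60-fold, 2.39-fold and 1.68-fold. The other 5 members did not pass the test. Thus 5 of 10 members were called, where 38.5% of the 19426 genes tested were called. By direction, 2 were higher, against 18.6% of all genes, and 3 were lower, against 19.9%. Values of 2 members lay wholly above those of cell body (22.6% of all genes did), 3 lay wholly below (24.5%) and 5 overlapped. The members' median log2 fold change was 0.26, against -0.05 over all genes tested. On log2(TPM + 1), 28.1% of the genes called were higher, against 48.2% in the edgeR fit, and the median of all genes moved to -0.17. Counts are relative to the library, so fewer molecules of an RNA and more of other RNAs cannot be told apart.

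Among the box C/D hosts, SNHG29 is the most abundant member and lies at chr17:16438822-16478678, where GENCODE 29 names it LRRC75A-AS1. Its levels, in CPM scaled by library total and TMM factors, were 460, 404 and 531 in pseudopodia, 307, 264 and 271 in cell body, and 197, 220 and 213 in whole cell. Every pseudopodia library stood above every cell body library, and these above the whole-cell libraries. The log2 fold change of pseudopodia against cell body was 0.73 ± 0.13 (SE, edgeR quasi-likelihood test, adjusted p = 0.0012), and on log2(TPM + 1) it was 0.43. Of its exon bases 12% overlap exons of LRRC75A on the opposite strand, and reads of the pair cannot be told apart without a stated strand setting.

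GAS5, named for its rise in growth-arrested cells, lies at chr1:173863900-173868882. Its CPM values were 148, 128 and 156 in pseudopodia, 121, 89.5 and 97.8 in cell body, and 65.5, 71.4 and 65.8 in whole cell. The 3 groups did not overlap, although cell body replicate 1 came close to the lowest pseudopodia library. The log2 fold change of pseudopodia against cell body was 0.48 ± 0.14 (edgeR adjusted p = 0.018). The call was lost when cell body replicate 2 or 3 or pseudopodia replicate 1 was left out (adjusted p up to 0.0859), and it was lost on log2(TPM + 1), with a log2 fold change of 0.20 and adjusted p = 0.198 in limma. A correction for GC content and length moved the value up, to 0.91 (adjusted p = 0.00462).

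SNHG1, the host with the most snoRNA entries, lies at chr11:62851988-62855914. Its CPM values were 8.07, 8.29 and 9.43 in pseudopodia, 25.7, 20.8 and 20.7 in cell body, and 17.1, 19.1 and 16.3 in whole cell. The pseudopodia libraries were the lowest, far below the other 6, and the cell body libraries were the highest. The log2 fold change of pseudopodia against cell body was -1.38 ± 0.15 (edgeR adjusted p = 2.81e-05), and it lay between -1.65 and -1.0 in the 18 alternative fits, all of them past the threshold.

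The remaining box C/D hosts were SNHG16, SNHG6 and SNHG5, and none was called between pseudopodia and cell body. SNHG16 stood at 53.5, 43.7 and 61.9 CPM in pseudopodia, 42.7, 47.9 and 47.7 in cell body, and 26.2, 26.1 and 22.6 in whole cell. Both fractions overlapped, and both lay above whole cells. SNHG6 stood at 55.6, 51.1 and 26.0 CPM in pseudopodia, 37.7, 27.6 and 29.1 in cell body, and 18.6, 20.3 and 19.9 in whole cell. Pseudopodia replicate 3 was the low one. Its log2 fold change was 0.49 ± 0.25 (edgeR adjusted p = 0.146), and without pseudopodia replicate 3 it was 0.76 (adjusted p = 0.00065). SNHG5 stood at 2.09, 2.81 and 1.81 CPM in pseudopodia, 1.63, 1.92 and 1.65 in cell body, and 2.44, 2.03 and 2.47 in whole cell, with overlap between pseudopodia and each other group. Exons on the opposite strand cover 30.6% of the exon bases of SNHG16 and 29.3% of those of SNHG6 (MCMDC2), so these 2 levels are uncertain in the same way as SNHG29.

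SNHG12, which holds 4 box H/ACA entries beside SNORD99, lies at chr1:28578538-28583132. Its CPM values were 3.67, 3.56 and 3.12 in pseudopodia, 9.56, 7.85 and 7.38 in cell body, and 5.22, 5.80 and 5.65 in whole cell. The 3 groups were fully apart, with pseudopodia lowest and cell body highest. The log2 fold change of pseudopodia against cell body was -1.26 ± 0.16 (edgeR adjusted p = 0.00011), and the 18 alternative fits gave -1.51 to -1.09, all past the threshold. Over the 9 libraries, log2 CPM of SNHG12 and SNHG1, each centred on its own mean, differed by a root mean square of 0.19, as against 0.12 for GAS5 and SNHG29 and 0.94 for GAS5 and SNHG1.

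**Figure D1:**
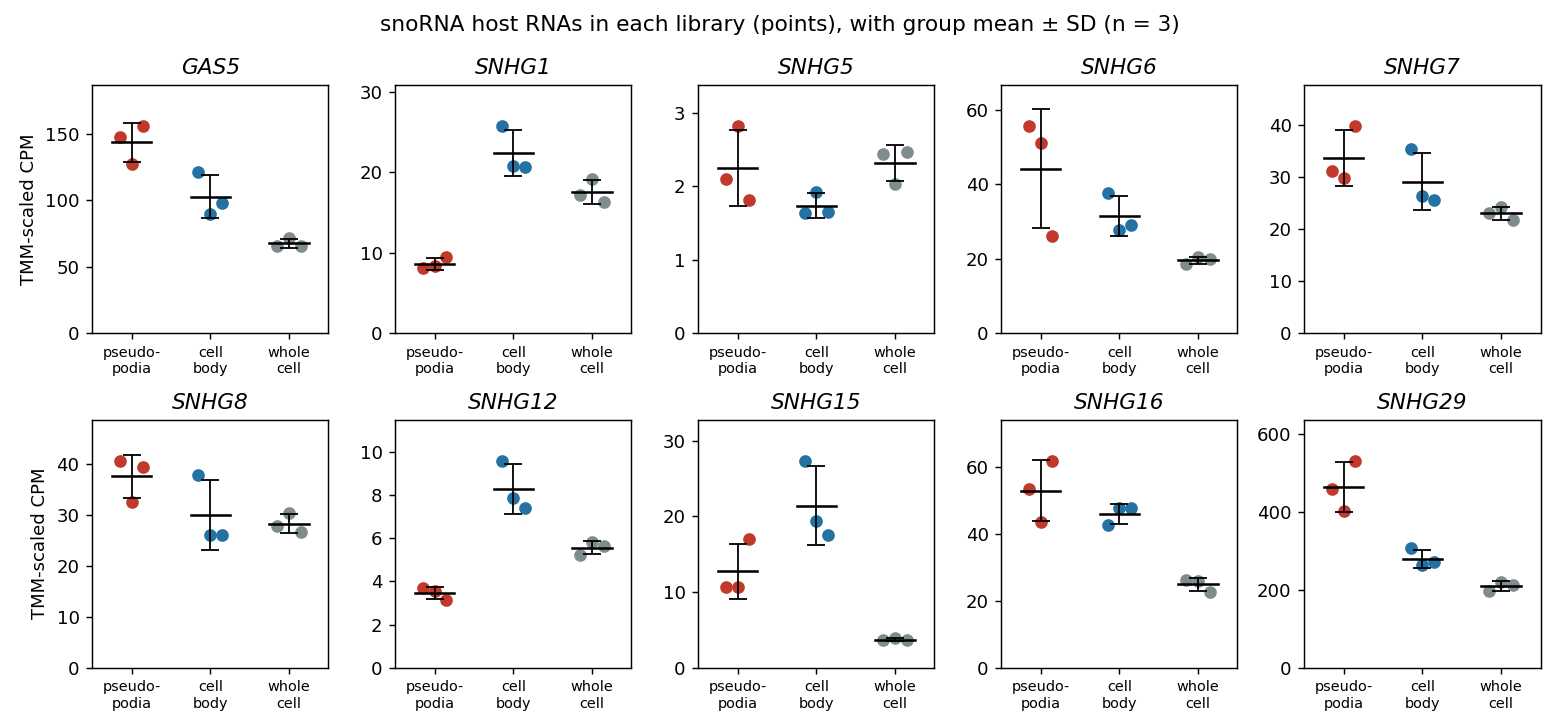
Normalised read counts (TMM-scaled CPM, vertical axis, linear and from 0) of each of the 10 host RNAs in each library (points) by group, with the mean (horizontal bar) and SD (whisker, n = 3). SNHG1 and SNHG12 are lowest in pseudopodia, SNHG15 is lowest in whole cells, and SNHG29 and GAS5 fall from pseudopodia through cell body to whole cell.

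Of SNHG7, SNHG8 and SNHG15, which hold no box C/D entry, SNHG15 was called between pseudopodia and cell body. SNHG15, reported as a short-lived RNA, lies at chr7:44983023-44986961 and holds SNORA9. Its CPM values were 10.7, 10.6 and 17.0 in pseudopodia, 27.3, 19.4 and 17.5 in cell body, and 3.60, 3.94 and 3.63 in whole cell. Pseudopodia replicate 3 lay just under the lowest cell body library, and both fractions were far above whole cells. The log2 fold change of pseudopodia against cell body was -0.75 ± 0.22 (edgeR adjusted p = 0.0196). Without cell body replicate 1 it was -0.50 (adjusted p = 0.111), and the call was also lost without pseudopodia replicate 1 (adjusted p = 0.0757) or 2 (adjusted p = 0.0503).

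SNHG7 and SNHG8 did not pass the test between the fractions. SNHG7, whose exons overlap those of FAM69B on the opposite strand over 25.2% of their bases, stood at 31.1, 29.9 and 39.8 CPM in pseudopodia, 35.5, 26.5 and 25.6 in cell body, and 23.2, 24.2 and 21.8 in whole cell. SNHG8 stood at 40.6, 32.7 and 39.5 CPM in pseudopodia, 37.9, 26.0 and 26.2 in cell body, and 27.8, 30.3 and 26.6 in whole cell. For both, the high cell body library was replicate 1, within the range of pseudopodia. Their log2 fold changes of pseudopodia against cell body were 0.20 ± 0.16 for SNHG7 (edgeR adjusted p = 0.354) and 0.32 ± 0.17 for SNHG8 (adjusted p = 0.152). Without cell body replicate 1 the value of SNHG8 was 0.56 and passed the threshold (adjusted p = 0.0165).

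Against whole cells, pseudopodia held more of SNHG15, SNHG6, SNHG29, GAS5, SNHG16 and SNHG7 and less of SNHG1 and SNHG12. This makes 8 of 10 members called, where 61.0% of all genes were, with 6 higher (27.9% of all genes) and 2 lower (33.1%). The members' median log2 fold change was 0.82, against -0.12 over all genes. On log2(TPM + 1) the median of all genes was -0.34, and 25% of the genes called were higher, against 45.7% in the edgeR fit. Values of 7 members lay wholly above those of whole cells (31.1% of all genes did), 2 lay wholly below (38.9%), and SNHG5 overlapped.

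SNHG15 showed the highest value here, with a log2 fold change of 1.77 ± 0.23 (edgeR adjusted p = 5.92e-05), a 3.42-fold difference. SNHG6 (1.18 ± 0.25), SNHG29 (2.22-fold, SE 0.13 on the log2 scale), GAS5 (1.09 ± 0.14) and SNHG16 (1.09 ± 0.15) were each more than 2-fold higher, with adjusted p of 0.00229 or less. On log2(TPM + 1) in limma these values were smaller, at 0.63 for SNHG6, which no longer passed (adjusted p = 0.0651), 0.67 for SNHG29, 0.61 for GAS5 and 0.59 for SNHG16, and SNHG15 was at 1.11. The GC and length correction put GAS5 at 1.75. SNHG7 was higher by 0.54 ± 0.16 (adjusted p = 0.0139), and this call was lost without whole cell replicate 3 (adjusted p = 0.0563) and on log2(TPM + 1), where the log2 fold change was 0.070. SNHG1 fell by 1.03 on the log2 scale (SE 0.15, adjusted p = 0.000123) and SNHG12 fell by 0.69 (SE 0.16, adjusted p = 0.0034). SNHG1 was at -0.49 with the GC and length correction (adjusted p = 0.0354), and SNHG12 at -1.12 on log2(TPM + 0.1). SNHG8 stood at 0.41 ± 0.17 (adjusted p = 0.0523), with all 3 pseudopodia libraries above all 3 of whole cells, and it passed the threshold in 7 of 18 alternative fits, among them the one without pseudopodia replicate 2 (adjusted p = 0.0238). On both TPM scales its sign turned (-0.052 on log2(TPM + 1)). SNHG5 was at -0.04 ± 0.20 (adjusted p = 0.871). This comparison shares its pseudopodia libraries with the one above. On a common scale, a mix of both fractions would lie between them. Yet mean CPM of GAS5, SNHG6, SNHG7, SNHG8, SNHG15, SNHG16 and SNHG29 was lower in whole cells than in either fraction. Differences from whole cells therefore do not by themselves place an RNA within the cell, and their cause was not tested.

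Cell bodies against whole cells, which share libraries with both other comparisons, gave 5 members higher and 0 lower. All genes were called at 38.6%, with 18.1% higher and 20.5% lower. SNHG5, the one member with a negative value, was at -0.41 ± 0.21 in edgeR (adjusted p = 0.135, unadjusted p = 0.0698), so 0 members were lower at an unadjusted p under 0.05 as well. DESeq2 also called 0 lower, and limma-voom called SNHG5 (adjusted p = 0.0359). The members' median log2 fold change was 0.50, against -0.06. On log2(TPM + 1) the median of all genes was -0.15, and 31.0% of the genes called were higher, against 46.9%. Values of 8 members lay wholly above those of whole cells (30% of all genes did), SNHG5 lay wholly below (34.9%), and SNHG8 overlapped.

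SNHG15 had by far the highest fold change between cell bodies and whole cells among the members, 2.52 ± 0.23 on the log2 scale or 5.74-fold (edgeR adjusted p = 2.13e-05). SNHG16 followed at 0.89 ± 0.15 (adjusted p = 0.00104) and GAS5 at 0.61 ± 0.14 (adjusted p = 0.00642). SNHG12 was at 0.57 ± 0.16 (adjusted p = 0.0155) and SNHG29 at 0.42 ± 0.13 (adjusted p = 0.0266). The call of SNHG12 was lost in 6 of 18 alternative fits and that of SNHG29 in 8 of 18. On log2(TPM + 1) their values were 0.34 (adjusted p = 0.07) and 0.24 (adjusted p = 0.0727). That of SNHG12 was also lost without cell body replicate 1 or whole cell replicate 1 or 3 (adjusted p up to 0.0742). That of SNHG29 was also lost without cell body replicate 1 or 3 or any of the whole-cell libraries (adjusted p up to 0.111). The count of members called fell to 3 without cell body replicate 1, whole cell replicate 1 or whole cell replicate 3. SNHG6 (0.68 ± 0.25, adjusted p = 0.0522), SNHG1 (0.35 ± 0.14, adjusted p = 0.0742), SNHG7 (0.34 ± 0.16, adjusted p = 0.125) and SNHG8 (0.09 ± 0.17, adjusted p = 0.708) did not pass. In the alternative fits SNHG6 was called in 7 of 18 (lowest adjusted p = 0.000819) and SNHG1 in 5 of 18 (lowest adjusted p = 0.0104), and for both the cell body libraries lay wholly above those of whole cells.

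**Figure D2:**
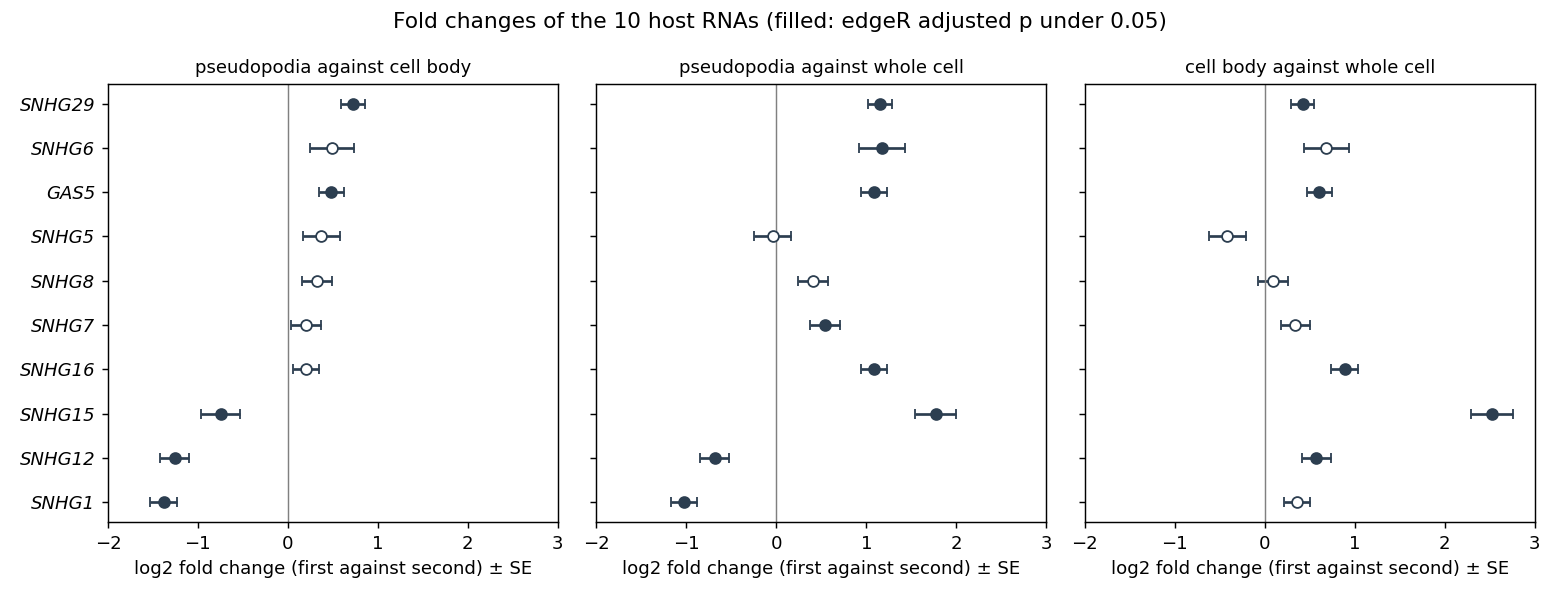
Log2 fold change of each host RNA (horizontal axis, first group against second, whiskers ± SE from the edgeR fit) in the 3 comparisons, ordered by the first panel; filled points have adjusted p under 0.05. SNHG1, SNHG12 and SNHG15 lie left of 0 between pseudopodia and cell body, and SNHG15 lies far right of 0 in both comparisons with whole cells.

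The summed share of the 10 members was 0.0438% ± 0.00207 of all whole-cell counts (SD, n = 3), 0.0574% ± 0.00928 of those of cell body and 0.0739% ± 0.00507 of those of pseudopodia. The lowest pseudopodia library (0.0681%) and the highest cell body library (0.0680%) nearly met. On the TPM scale, which divides by length, the shares were 0.0304% ± 0.00102, 0.0398% ± 0.00493 and 0.0429% ± 0.00192 in the same order. There cell body replicate 1, at 0.0454%, stood above every pseudopodia library, so these groups overlapped. SNHG29 and GAS5 make up most of these sums. The 541 genes of the table that are named as snoRNAs or as the related small Cajal body RNAs were summed. Their sums were 11.1 ± 0.224 CPM of library total for whole cells, 8.27 ± 1.64 for cell body and 2.00 ± 0.274 for pseudopodia. The 3 groups did not overlap, and an exact two-sided permutation test gave p = 0.1 for each pair, the smallest that 3 against 3 allows. Most such genes lie inside hosts, so mature snoRNA and unspliced host RNA cannot be told apart in these counts. Of the 26 entries inside the members only 2 had any count, so the sums say little about the snoRNAs of these hosts.

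**Figure D3:**
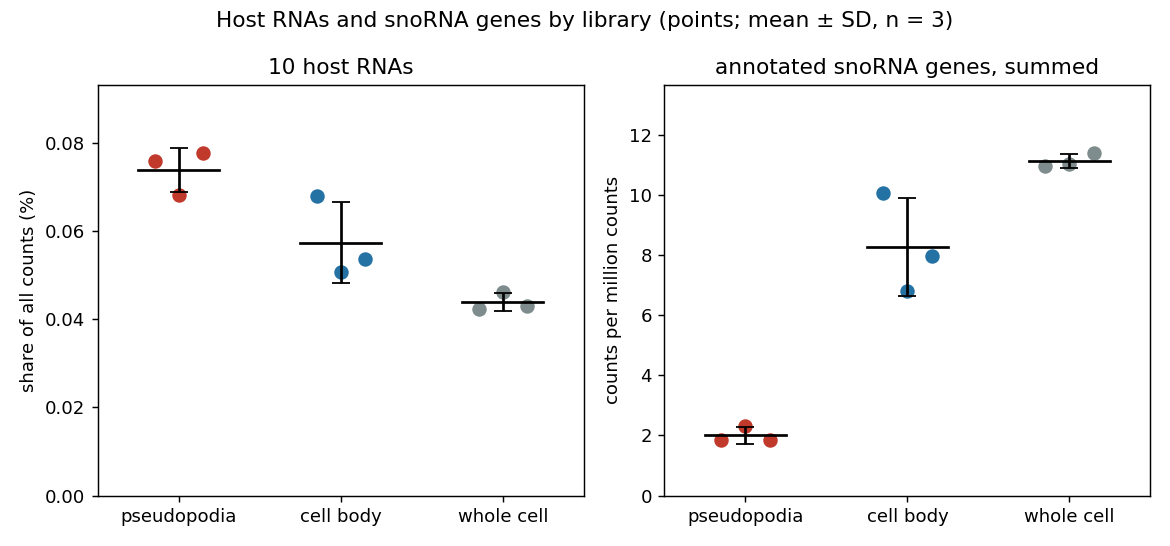
Share of all counts taken by the 10 host RNAs (left, percent) and counts in genes named as snoRNAs or small Cajal body RNAs, in CPM of library total (right) in each library (points), with mean and SD (n = 3), both axes from 0. The host RNAs run from 0.0739% in pseudopodia to 0.0438% in whole cell on average, and the snoRNA gene counts from 2.00 CPM in pseudopodia to 11.1 CPM in whole cell. Of the 26 snoRNA entries inside the 10 hosts, only 2 had any count.

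SNHG1, SNHG12 and SNHG15 are also the members whose span is nearly all annotated as exon in one transcript or another: 95.6%, 92.8% and 92.6% of the span, against 9.43% to 82.8% for the other 7. This was noticed after the fold changes had been seen. It was not seen in the other noncoding snoRNA hosts: the 5 of them lower in pseudopodia than in cell body had 7.71% to 83.2% (median 46.2%), and the 14 not lower had 1.38% to 100% (median 31.8%). An intron that any annotated transcript keeps counts here as exon.

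**Figure D4:**
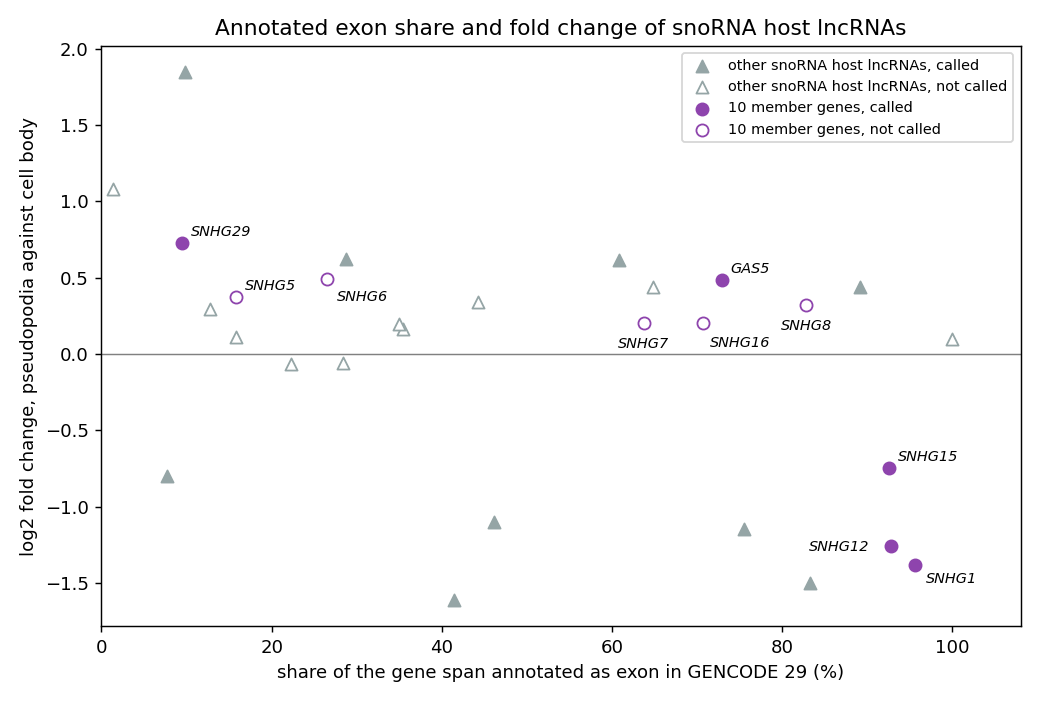
Log2 fold change of pseudopodia against cell body (vertical axis) over the share of the gene span annotated as exon (horizontal axis, percent), for the 10 members (circles, named) and 19 other snoRNA host noncoding RNAs (triangles); filled points have edgeR adjusted p under 0.05. The 3 lower members sit above 92% exon share, while the 5 lower hosts among the others spread from 7.71% to 83.2%.

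Other hosts were counted for context. Of 20 other noncoding snoRNA hosts tested, pseudopodia against cell body gave 4 higher and 5 lower (median log2 fold change 0.14), 10 higher and 5 lower against whole cell, and 9 higher and 1 lower in cell body against whole cell. SNHG3 was among the lower ones, at 7.73 against 21.9 CPM, and SNHG4 at 1.74 against 5.33, with log2 fold changes of -1.50 ± 0.18 and -1.61 ± 0.16, near that of SNHG1. SNHG14 was higher, at 68.6 against 19.1 CPM (1.85 ± 0.14), and DANCR at 18.6 against 12.1 (0.63 ± 0.15). These counts of other hosts stand beside 18.6% and 19.9% of all genes in the first comparison, 27.9% and 33.1% in the second, and 18.1% and 20.5% in the last.

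The ribosomal protein mRNAs that host snoRNAs stood higher in pseudopodia than in cell body in 17 of 19 cases, with a median log2 fold change of 0.66, and the other 2 were not called. This and the counts below stand beside 18.6% of all genes higher and 19.9% lower in the same comparison. All ribosomal protein genes took 3.14% of whole-cell, 4.68% of cell body and 6.81% of pseudopodia counts. The part of this shift in the values of GAS5 and SNHG29 was not tested. Other mRNAs with a pyrimidine tract at their start were higher in 8 of 13, such as HNRNPA1 (1.66 ± 0.11), with the rest not called. Some of these mRNAs, such as EEF2, also host snoRNAs and are counted again in the next list. Among protein-coding hosts that are not ribosomal, 12 of 25 were higher and 3 lower. The translation initiation factor EIF4G1 was higher (1.61 ± 0.17) and the chaperone HSPA8 lower (-0.91 ± 0.13). The lowest was EIF4A1 (-3.055 ± 0.30), on only 14 to 36 counts a library in pseudopodia. Noncoding RNAs known from the cytoplasm and without snoRNAs were higher in 4 of 4, such as NORAD (0.68 ± 0.16). Nuclear noncoding RNAs were higher in 1, lower in 7 and not called in 2 of 10, with a median log2 fold change of -1.33. MEG3 was the lowest of them (-3.28 ± 0.15). The part of these RNAs in the lower values of SNHG1 and SNHG12 was not tested.

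The protein partners of snoRNAs and the factors of nonsense-mediated decay were counted as well, against 18.6% of all genes higher and 19.9% lower. Of 18 genes for snoRNA-protein complexes and their assembly, pseudopodia against cell body gave 3 higher and 1 lower. Some of these genes, such as DKC1, also host snoRNAs and were counted among the protein-coding hosts above. FBL, the methyltransferase of box C/D complexes, was at 174 against 55.8 CPM (1.64 ± 0.16, edgeR adjusted p = 1.18e-05), and DKC1, the pseudouridine synthase of box H/ACA complexes, at 95.8 against 51.2 (0.90 ± 0.12). NAF1, an assembly factor of H/ACA complexes, was lower (-0.96 ± 0.20). Of 16 nonsense-mediated decay factors 9 were higher and 3 lower, with CASC3, an exon junction protein, the highest (1.76 ± 0.17) and SMG8, which regulates the kinase of the pathway, the lowest (-1.38 ± 0.15).

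The genes whose profile over the 9 libraries was nearest to the median profile of the 10 members were FARS2, HINT1, NBDY, JPT1 and HSPB1, by root mean square distance of centred log2 CPM (0.048 to 0.068, where the median of 10284 candidate genes was 0.48). Nearest to SNHG29 were RRAS, COPZ2 and CDC37 (0.045 to 0.053). Nearest to SNHG1 were FUCA2, BST1 and HLA-DPA1 (0.068 to 0.10), and nearest to SNHG15 were TNFRSF12A, RNF122 and RHOB (0.18 to 0.21). These 3 members were picked for the search after their values had been seen. The profiles share the libraries and their scaling, so the likeness is a description.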

How the data were processed

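RNA sequencing of 9 libraries (3 each of pseudopodia, cell body and whole cell) was used. The authors deposited whole-number read counts per gene, which the labels attribute to featureCounts, and TPM values per library. The submitters' processing notes name GRCh38 and DESeq2. The aligner, annotation release, strand setting and versions were not given in the sources used here. A row without values (1) was left out of the count table, which held 62709 genes, 37196 of them with a count. Members and lists were chosen with earlier results of these data known. Any list fixed for context is therefore a description.

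The deposited counts of all 9 libraries entered 1 fit in edgeR 4.0.16 (R 4.3.3) with TMM factors, the filterByExpr filter (19426 genes kept), robust quasi-likelihood tests, no covariate and Benjamini-Hochberg adjustment over all genes tested, called at adjusted p under 0.05. Standard errors were derived from the test statistic. Since 1 spread per gene served all groups and pseudopodia varied most, p-values with pseudopodia may be too small, and those without them too large. All 10 members are named. From each context list at most the 2 highest and 2 lowest called genes with a mean of at least 1 CPM could be named, and other noncoding hosts from 5 CPM on. The genes of nearest profile had a mean of at least 5 CPM, with a prior count of 2 for log2 CPM. Alternatives were DESeq2 1.42.0 (size factors, and its own test), upper-quartile factors, no mitochondrial or ribosomal protein genes, no low-count filter, 5 CPM in 3 libraries, limma 3.58.1 (voom with sample weights, and log2 of the deposited TPM + 1 or + 0.1), only the 6 libraries compared, a replicate block, and each library left out. A correction for GC content and length (lowess span 0.3; 96.1% of tested genes had a GC value) was added after seeing the data. Gene positions, exons and snoRNA sequences came from GENCODE 29, promoters from RefSeq.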

Additional observations from a re-analysis of the deposited data

How the results depend on the processing

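Of 537 values of the 10 members under the alternatives, 462 kept their direction and their side of the threshold, 31 lost a call, 26 gained one and 18 changed sign. All 18 changes of sign were of members without a call. Pseudopodia against cell body gave -0.0741, -0.0766 and -0.0312 for SNHG7 and -0.0937 and -0.0965 for SNHG16 (log2(TPM + 1), log2(TPM + 0.1) and, for SNHG7, the GC and length correction). Pseudopodia against whole cell gave -0.05 on both TPM scales for SNHG8 (-0.0518 and -0.0542). For SNHG5 it gave 0.000245 with DESeq2 size factors, 0.0453 with no low-count filter and 0.00248 in the DESeq2 test, and with 1 library left out -0.23 to 0.096. Cell body against whole cell gave for SNHG8 -0.038 with limma-voom, -0.10 and -0.11 on the TPM scales, and -0.10 to 0.21 with 1 library left out. SNHG1, SNHG12 and SNHG29 kept their calls between pseudopodia and cell body in all 18 alternatives, GAS5 in 11 and SNHG15 in 14.

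The count of members called between pseudopodia and cell body was 3 with the replicate block, and 3 to 6 with 1 library left out (3 without pseudopodia replicate 1). Between cell body and whole cell it was 9 with limma-voom, 3 on both TPM scales and 3 to 5 with 1 library left out. Of all genes, a filter of 5 CPM tested fewer (10917) and called 7516 in pseudopodia against whole cell. In the cell body comparison with whole cells it called 4667, and limma-voom called 11999. The cause of the other changes was not tested. Same-numbered libraries correlated at -0.081 to 0.090 in their deviations from the group means, so the numbers were not taken to pair the libraries. With the replicate block 5093 genes were called between pseudopodia and cell body, GAS5 (adjusted p = 0.0781) and SNHG15 (adjusted p = 0.0544) were not, and between cell body and whole cell 7 members were. In these 3 groups of 3 no sample was tested for standing apart. SNHG5, SNORD99 and SNORD1B are limited by low counts.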
